A study of Mus musculus with 34 samples.

Results

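The 38 DNA replication genes described here encode the proteins that open replication origins, unwind and copy the DNA and supply its nucleotides. They were picked by gene symbol, with earlier results of these data known: 6 subunits of the helicase (Mcm2 to Mcm7), 6 helicase activators (Mcm10, Gins1 to Gins4 and Cdc45), 4 genes of origin licensing (Orc1, Orc6, Cdc6 and Cdt1), 9 of the polymerases and primase (Pola1, Pola2, Prim1, Prim2, Pold1, Pold2, Pold3, Pole and Pole2), 6 of the sliding clamp and its loader (Pcna and Rfc1 to Rfc5), 2 of single-strand binding (Rpa1 and Rpa2), 3 of nucleotide supply (Rrm1, Rrm2 and Tyms) and 2 that finish the lagging strand (Fen1 and Lig1). All 38 were present among the 52550 genes of the main table and the 25498 genes of a second table named batch 1, and all 38 held enough counts to be among the 19444 and 15481 genes tested there.

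Their RNA was measured by sequencing in bone marrow-derived macrophages, grown from marrow of mice aged 10 to 14 weeks for 6 days with 10 ng/ml of the growth factor M-CSF, rested for 24 h, and then given 200 mg/dL of low-density lipoprotein (LDL) or vehicle for 24 h. Every mouse, WT included, carried Vav-Cre, which drives recombination in blood cells. Dnmt3aKO mice had both alleles of Dnmt3a floxed, Tet2KO mice both alleles of Tet2, and Jak2VF mice held 1 mutant Jak2 V617F allele beside a WT allele. In the main set, each of the 4 genotypes had 3 libraries per treatment, 24 in all. Batch 1 held 3 vehicle and 2 LDL libraries of WT and the same of Tet2KO. The labels state neither the sex of the mice nor if different animals gave the replicate libraries. A p-value here reflects the spread among these libraries alone, which may be technical.

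Before S phase, the origin recognition complex, Cdc6 and Cdt1 load the ring of MCM proteins onto DNA, where it waits as an inactive helicase. Cdc45 and the GINS complex then join the ring and start unwinding, polymerase alpha with primase lays the primers, and polymerases epsilon and delta extend them while held to DNA by the Pcna clamp. In cells that stop dividing, the retinoblastoma family of proteins keeps E2F transcription factors from driving most of these genes, and M-CSF is the signal that keeps macrophage precursors dividing in culture.

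Since many of these genes are textbook E2F targets, the bases around their start sites were searched for E2F words. A promoter window of RefSeq (GRCm38.p6, reaching 50 bases past the start) was found for 31 of the 38 genes. The words TTTCCCGC, TTTGGCGC, TTTCGCGC and TTTGCCGC were sought on both strands, where a word on one strand can overlap a word on the other. At least 1 word was found in 14 of the 31 genes (45.2%) and in 704 of 27025 genes with a window (2.61%). The GC content of the windows also differed, with a median of 58.8% in the 31 and 52.7% over all genes. CCAAT, the word bound by NF-Y, was found in 20 of the 31 (64.5%, against 41.1% over all genes), and TTTGAA, the CHR word of many mitosis genes, in 5 of them (16.1%, against 20.2%). Of 21 mitosis genes with a window, 1 held an E2F word (4.76%), 18 held CCAAT (85.7%) and 15 held TTTGAA (71.4%). These are matches of letters and were not read as binding sites. The bases just before the start are shown for 7 of the genes followed below, from licensing to the clamp loader, 5′ to 3′ on the gene's strand (+ or -), with the E2F words in capitals.
Orc1 chr4:108579284-108579453 (+): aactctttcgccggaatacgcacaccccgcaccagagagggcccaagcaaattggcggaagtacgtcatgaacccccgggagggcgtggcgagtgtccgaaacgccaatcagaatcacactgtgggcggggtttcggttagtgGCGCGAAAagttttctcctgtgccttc
Cdc6 chr11:98907981-98908150 (+): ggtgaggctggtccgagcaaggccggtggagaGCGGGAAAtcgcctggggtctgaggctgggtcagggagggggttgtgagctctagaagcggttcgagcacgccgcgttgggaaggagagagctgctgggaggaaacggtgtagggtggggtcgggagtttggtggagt
Mcm5 chr8:75109339-75109508 (+): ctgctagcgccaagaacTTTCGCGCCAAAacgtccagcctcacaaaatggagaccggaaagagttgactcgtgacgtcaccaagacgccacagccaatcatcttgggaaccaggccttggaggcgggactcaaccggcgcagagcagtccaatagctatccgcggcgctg
Mcm6 chr1:128359706-128359875 (-): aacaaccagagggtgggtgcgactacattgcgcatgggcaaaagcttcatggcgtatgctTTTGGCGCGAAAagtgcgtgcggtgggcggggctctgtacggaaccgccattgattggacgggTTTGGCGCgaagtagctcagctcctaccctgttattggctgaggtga
Mcm7 chr5:138171884-138172053 (-): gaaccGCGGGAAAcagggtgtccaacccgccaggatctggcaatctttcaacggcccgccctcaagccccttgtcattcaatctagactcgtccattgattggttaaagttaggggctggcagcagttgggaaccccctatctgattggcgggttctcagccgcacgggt
Pola1 chrX:93632156-93632325 (-): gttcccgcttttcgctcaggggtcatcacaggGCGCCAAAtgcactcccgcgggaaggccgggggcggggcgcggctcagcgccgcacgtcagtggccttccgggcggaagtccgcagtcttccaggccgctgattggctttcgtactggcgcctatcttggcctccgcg
Rfc3 chr5:151651209-151651378 (-): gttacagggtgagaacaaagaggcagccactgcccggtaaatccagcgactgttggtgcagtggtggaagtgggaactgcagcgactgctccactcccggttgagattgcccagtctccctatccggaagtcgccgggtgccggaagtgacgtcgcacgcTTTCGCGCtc
In Mcm5 and in Mcm6 the capitals cover 2 overlapping words on opposite strands, and Mcm6 has 1 more word nearer to the start. Mcm7 has a second listed start, not shown. Mcm3, Gins3, Cdt1, Pole2, Pold1, Pold3 and Lig1 also held a word in their windows, while Pcna, Rrm1, Rrm2, Tyms and the others with a window did not. Mcm4, Rfc2, Prim2, Gins2, Pole, Gins1 and Gins4 were not searched.

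The libraries held 24105237 to 43904761 counts in the main set and 15171143 to 44449473 in batch 1. Levels below are CPM, counts scaled to a common library total after TMM normalization, and effects are given as log2 fold change ± standard error (SE) from one edgeR fit per set. A gene was called at a Benjamini-Hochberg adjusted p under 0.05 over all genes tested. The 9 macrophage markers summed to 18700 to 34700 CPM in the main set. Markers of stromal cells were also abundant there, with Col1a1 alone at 2334 to 6207 CPM. Summed over 6 genes, they ran from 10400 to 11400 CPM with vehicle and from 8440 to 10700 CPM with LDL in WT, from 10600 to 11100 and from 7710 to 8470 CPM in Dnmt3aKO, from 10900 to 13000 and from 7590 to 9850 CPM in Tet2KO, and from 12100 to 16100 and from 11100 to 11800 CPM in Jak2VF. Single stromal markers differed: in WT 4 of the 6 had negative effects of LDL and 2 positive ones, with 1 called higher and 0 lower. Neutrophil markers ran from 38.8 to 62.8 CPM in Tet2KO, from 130 to 231 CPM in WT, from 614 to 663 CPM with vehicle and 433 to 480 CPM with LDL in Dnmt3aKO, and from 525 to 698 and 309 to 365 CPM in Jak2VF. Markers of hematopoietic progenitors ran from 20.7 to 41.7 CPM over all main libraries. Replicate 3 of WT with LDL and replicate 3 of Tet2KO with LDL held the most of the astrocyte gene Gfap, at 2.72 and 4.26 CPM, while the brain markers summed to 70.8 to 122 CPM over all main libraries. The sum of the 6 markers of T and NK cells ran from 26.9 to 28.2 CPM with vehicle and 13.7 to 16.4 CPM with LDL in WT. It ran from 38.1 to 44.4 and 14.8 to 15.9 CPM in Dnmt3aKO. In Tet2KO it ran from 54.3 to 58.9 and 18.0 to 21.2 CPM, and in Jak2VF from 17.4 to 19.7 and 5.0 to 5.99 CPM. The sum does not describe each marker: in WT 4 of the 6 had positive effects of LDL and 2 negative ones, with 1 called lower. The sum of the 5 megakaryocyte markers moved the other way, from 575 to 875 CPM with vehicle to 1180 to 1890 CPM with LDL in WT. It went from 518 to 582 to 685 to 735 CPM in Dnmt3aKO and from 689 to 811 to 1020 to 1600 CPM in Tet2KO. In Jak2VF it was at 514 to 877 and 822 to 1010 CPM. Gene by gene, 4 of these 5 markers had positive effects of LDL in WT, with 1 called higher. In Dnmt3aKO 4 of the 5 had negative effects, with 1 called lower, although the sum rose. Of the markers present in each set, none was at 0 in all libraries. In the main set 4 of 5 erythroid markers were present. In batch 1 so were 5 of 8 brain, 5 of 6 mast cell and basophil, 5 of 6 dendritic cell and 4 of 5 erythroid markers. The part of these other cells in the results was not tested. Dnmt3a was lower in Dnmt3aKO than in WT (-0.91, adjusted p = 0.000199 with vehicle), whereas the whole-gene count of Tet2 was not called in Tet2KO (0.38, adjusted p = 0.568) and cannot show a deleted exon, nor can those of Jak2 show a point mutation.

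Per kilobase of exon, the most abundant of the 38 in WT macrophages with vehicle was Pcna, the sliding clamp, at 99.0 CPM per kb. Rrm2 followed at 43.7, Mcm6 at 37.8, Mcm3 at 31.2 and Rrm1 at 25.4 CPM per kb, and Orc1 stood near the end at 1.73 CPM per kb. Fen1, the flap endonuclease of the lagging strand, was lowest at 0.499 ± 0.181 CPM per kb (SD, n = 3). In the annotation, exons of the predicted gene Gm10143 on the opposite strand cover 78.8% of the exon bases of Fen1, and those of Gse1 cover 67.3% of Gins2, and the sources used here do not say whether reads were counted by strand. The levels of Fen1 and Gins2 are therefore uncertain. For no other of the 38 did the overlap with another gene pass 15.1% of exon bases (Rfc2 with Lat2).

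**Figure D1:**
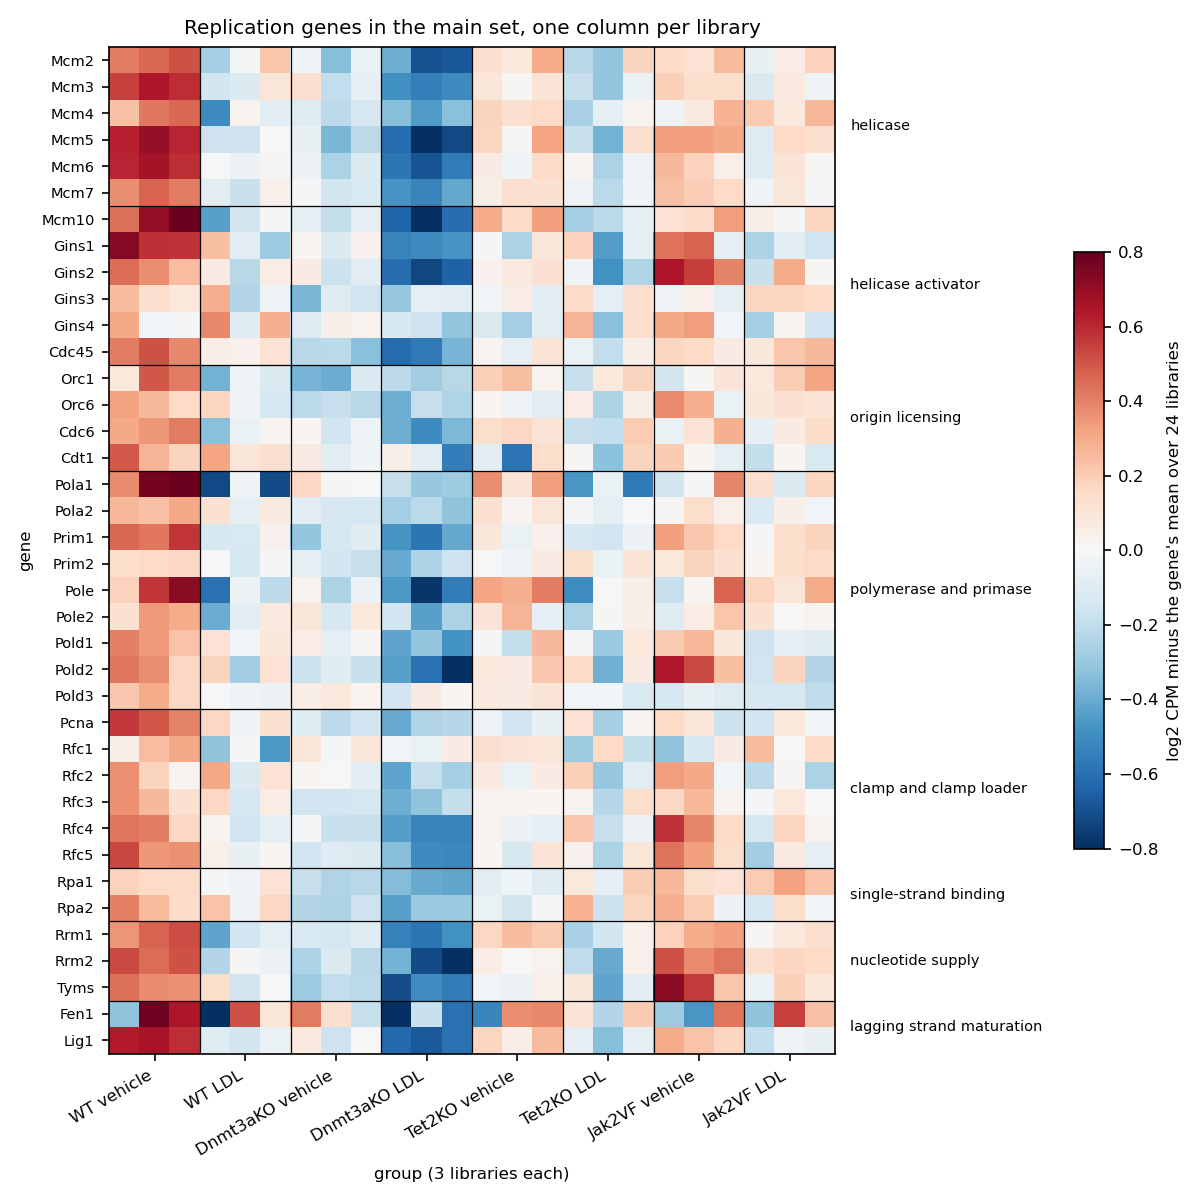
Level of each of the 38 genes (one line per gene, ordered by role) in the 24 main libraries. Colour gives the log2 level minus the gene's mean over these libraries. Most genes are highest in the WT vehicle libraries and lowest in the Dnmt3aKO libraries with LDL.

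In WT macrophages LDL lowered the RNA of most replication genes. Of the 38, 25 were called lower and none higher, while over all genes tested 7.58% were called lower and 6.67% higher. The median effect was -0.41 on the log2 scale, against 0 over all genes, and 37 of 38 effects were negative. In 29 of the genes, all 3 LDL libraries were below all 3 vehicle libraries. Here and below, genes without overlap were counted in the gene lists only. Their share over all genes is not known, and these counts describe the libraries without a background. The number called lower was 12 in a fit of the WT libraries alone, and 22 without both LDL libraries highest in Gfap. In bulk RNA, fewer cycling cells in the culture and less RNA per cell cannot be told apart.

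The helicase fell as a whole, with 6 of 6 subunits called lower (median effect -0.59). Mcm5 (chr8:75109569-75128439, GRCm38) stood at 98.6, 104 and 98.1 CPM in the WT vehicle libraries and at 57.4, 57.4 and 64.1 CPM with LDL. The groups were far apart, and the effect was -0.75 ± 0.11, adjusted p = 4.75e-05. Mcm4 (chr16:15623897-15637400) ran from 79.3 to 92.7 CPM with vehicle and from 47.4 to 68.7 CPM with LDL (-0.55 ± 0.11, adjusted p = 0.00133). Among the other subunits, the effects lay between -0.46 for Mcm2 and -0.65 for Mcm3.

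Of the 6 helicase activators, Mcm10, Gins1, Gins2 and Cdc45 were lower with LDL, and Gins3 and Gins4 did not pass the test. Cdc45, the partner that joins the ring at firing, stood at 30.3, 32.4 and 29.8 CPM with vehicle and at 23.6, 23.3 and 24.6 CPM with LDL (-0.37 ± 0.08, adjusted p = 0.00324). Gins2, a subunit of the 4-protein GINS complex, read 23.7, 22.5 and 20.6 CPM and 18.2, 14.9 and 18.1 CPM (-0.38 ± 0.12, adjusted p = 0.0384). In both genes no LDL library reached the lowest vehicle library. Mcm10, which binds the ring as it opens, changed most of the 6, from 20.7, 24.8 and 26.3 CPM to 11.3, 13.8 and 15.3 CPM (-0.83 ± 0.11, adjusted p = 1.23e-05). Gins4 had the only positive effect among the 38 genes in this comparison (0.11 ± 0.14, adjusted p = 0.665), with 30.7, 24.4 and 24.6 CPM in the vehicle libraries and 32.4, 23.2 and 30.4 CPM in the LDL libraries, which overlap.

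The licensing genes split evenly. Cdc6, the loader ATPase, went from 20.3, 20.9 and 21.9 CPM to 13.03, 15.8 and 16.7 CPM (-0.47 ± 0.11, adjusted p = 0.00573), and Orc1, the largest subunit of the origin recognition complex, also fell (-0.51 ± 0.13, adjusted p = 0.01). Cdt1, which brings the ring to the origin, read 33.5, 28.8 and 26.96 CPM with vehicle and 29.8, 25.6 and 26.1 CPM with LDL. Those ranges overlap, and its effect of -0.13 ± 0.16 did not pass the test (adjusted p = 0.646), nor did that of Orc6 (-0.24 ± 0.11, adjusted p = 0.147).

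Among the polymerases, the catalytic subunit of polymerase alpha showed the largest effect of all 38 genes. Pola1 (chrX:93304767-93632155) stood at 31.5, 41.2 and 41.8 CPM with vehicle and at 14.7, 23.8 and 14.8 CPM with LDL (-1.10 ± 0.18, adjusted p = 0.000108). Its second LDL library was well above the other two, though still below every vehicle library. Pole, the leading-strand polymerase, went from 33.3, 43.5 and 48.3 CPM to 19.3, 28.3 and 25.3 CPM (-0.78 ± 0.17, adjusted p = 0.00302), again without overlap. Prim1 (-0.55), Pold3 (-0.26) and Pola2 (-0.23) were also called lower, while Prim2, Pole2, Pold1 and Pold2 were not called.

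Pcna (chr2:132249162-132253314) dropped from 251, 239 and 224 CPM with vehicle to 190.1, 166 and 185 CPM with LDL (-0.40 ± 0.10, adjusted p = 0.0078), with a clear gap between the groups. Of the clamp loader, Rfc1, Rfc4 and Rfc5 were lower (effects of -0.45, -0.40 and -0.42). Rfc3 read 19.8, 18.4 and 16.7 CPM and 17.2, 14.03 and 16.00 CPM, which overlap (-0.22 ± 0.10, adjusted p = 0.16), and Rfc2 had the largest adjusted p of the 38 genes (-0.08 ± 0.13, adjusted p = 0.723), at 73.9, 65.1 and 58.4 CPM with vehicle and 71.1, 53.1 and 62.3 CPM with LDL. Neither gene of the single-strand binding protein passed the test. Rpa2 stood at 44.9, 40.5 and 37.7 CPM and 39.8, 33.4 and 38.1 CPM (-0.15 ± 0.11, adjusted p = 0.423), with 2 of 3 LDL libraries inside the vehicle range.

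All 3 genes of nucleotide supply fell. Rrm1, the large subunit of ribonucleotide reductase, stood at 262, 283 and 295 CPM with vehicle and at 153, 184 and 194 CPM with LDL (-0.66 ± 0.09, adjusted p = 8.2e-06). Its S-phase partner Rrm2 went from 124, 117 and 122 CPM to 73.2, 86.6 and 83.3 CPM (-0.58 ± 0.10, adjusted p = 0.000386). Tyms, thymidylate synthase, went from 34.6, 33.2 and 32.97 CPM to 28.2, 23.1 and 25.5 CPM (-0.39 ± 0.12, adjusted p = 0.0321), a smaller step that also left a gap between the groups.

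Lig1, the ligase that seals lagging-strand fragments, had the smallest adjusted p of the 38 genes. At chr7:13277283-13311433, it stood at 83.6, 85.1 and 80.9 CPM with vehicle and at 50.4, 48.5 and 51.8 CPM with LDL (-0.73 ± 0.08, adjusted p = 1.32e-06), tight groups with a wide gap. Fen1 read only 0.710, 1.53 and 1.39 CPM and 0.473, 1.27 and 0.951 CPM, and its effect of -0.43 ± 0.35 could not be told from 0 at this depth (adjusted p = 0.465).

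**Figure D2:**
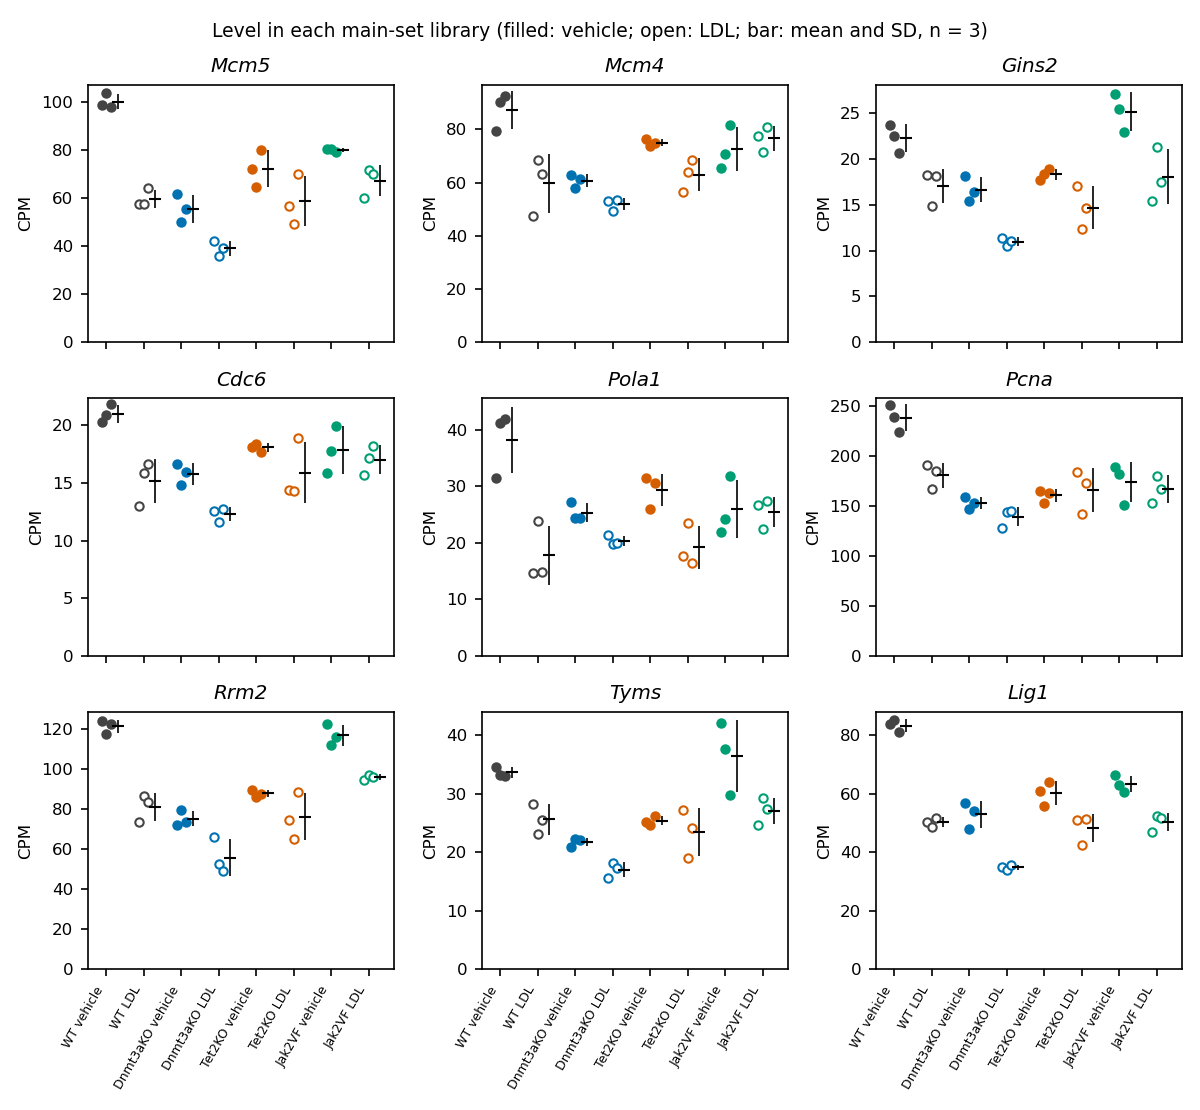
CPM in every library of the main set for 9 replication genes; each point is one library (filled with vehicle, open with LDL), and the bars give the group mean and SD (n = 3). In each of the 9 panels the 3 WT libraries with LDL lie below the 3 with vehicle.

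Dnmt3aKO macrophages lost replication transcripts with LDL from a lower start. There 18 of the 38 genes were called lower and none higher (8.96% lower and 6.41% higher over all genes), with a median effect of -0.32 and 30 genes without overlap. Leaving out 1 library gave 10 to 14 called genes. In Tet2KO 4 were called lower (Mcm10, Pola1, Rrm1 and Lig1) and in Jak2VF 8 (Gins1, Gins2, Pold1, Pold2, Rfc4, Rfc5, Tyms and Lig1), with none higher in either. In Tet2KO 8 were called without both LDL libraries highest in Gfap, and no call was left in Jak2VF without its LDL replicate 1. Over all genes, 8.21% were called lower and 8.59% higher in Tet2KO, and 9.72% lower and 8.44% higher in Jak2VF. The share of replication genes called in Tet2KO was thus close to that of all genes. Median effects were -0.13 in both. The all-gene medians in Dnmt3aKO and Jak2VF were -0.02.

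Lig1 was the one gene called lower with LDL in all 4 genotypes. It read 56.8, 47.9 and 54.05 CPM with vehicle and 34.9, 33.8 and 35.7 CPM with LDL in Dnmt3aKO, 60.8, 55.9 and 64.1 CPM and 50.9, 42.6 and 51.2 CPM in Tet2KO, and 66.2, 62.95 and 60.6 CPM and 46.97, 52.5 and 51.6 CPM in Jak2VF. The LDL libraries lay below the vehicle libraries within each genotype, with effects of -0.61 ± 0.08 (adjusted p = 1.43e-05), -0.32 ± 0.08 (0.00877) and -0.33 ± 0.08 (0.00714). Gins1, Gins2, Mcm10, Rfc4, Rfc5 and Rrm1 were called in 3 genotypes, and 13 genes in 2. Fen1, Cdt1, Rfc3, Rpa1, Rpa2, Rfc2, Orc6, Gins3, Gins4, Prim2 and Pole2 were called in none.

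Mcm5 read 61.5, 49.9 and 55.5 CPM with vehicle and 41.98, 35.99 and 39.01 CPM with LDL in Dnmt3aKO, 72.2, 64.7 and 79.9 CPM and 56.9, 49.3 and 70.1 CPM in Tet2KO, and 80.4, 80.5 and 79.2 CPM and 59.9, 71.7 and 70.05 CPM in Jak2VF. It was called lower in Dnmt3aKO (-0.51 ± 0.11, adjusted p = 0.0025) and not in Tet2KO (-0.30 ± 0.11, adjusted p = 0.0719), where 1 LDL library lay inside the vehicle range, nor in Jak2VF (-0.25 ± 0.11, adjusted p = 0.119). Mcm6 had the second smallest adjusted p in Dnmt3aKO, where it went from 111, 96.1 and 106 CPM to 76.5, 70.97 and 77.5 CPM (-0.48 ± 0.08, adjusted p = 0.00029). Mcm10 had the smallest in Tet2KO, from 18.7, 16.9 and 19.1 CPM to 12.6, 13.2 and 14.4 CPM (-0.45 ± 0.11, adjusted p = 0.00732).

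Gins2 read 18.2, 15.4 and 16.4 CPM with vehicle and 11.4, 10.5 and 11.1 CPM with LDL in Dnmt3aKO, 17.8, 18.3 and 18.9 CPM and 17.02, 12.4 and 14.7 CPM in Tet2KO, and 27.1, 25.4 and 22.9 CPM and 15.4, 21.4 and 17.5 CPM in Jak2VF. Its effects were -0.60 ± 0.12, adjusted p = 0.00149 in Dnmt3aKO and -0.48 ± 0.12, adjusted p = 0.00874 in Jak2VF, and -0.32 ± 0.12, adjusted p = 0.0846 in Tet2KO, where it was not called although the groups do not overlap. For Cdc45 the values were 19.5, 19.6 and 18.1 CPM with vehicle and 14.9, 15.4 and 17.6 CPM with LDL in Dnmt3aKO, 23.1, 21.6 and 24.4 CPM and 21.97, 19.9 and 23.5 CPM in Tet2KO, and 25.7, 25.5 and 23.9 CPM and 24.3, 26.6 and 27.2 CPM in Jak2VF. Its step in Dnmt3aKO was small (-0.25 ± 0.08, adjusted p = 0.0437), and in the other mutants the treatments overlap (-0.08 in Tet2KO and 0.06 in Jak2VF).

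Cdc6 stood at 16.6, 14.8 and 15.9 CPM with vehicle and 12.5, 11.6 and 12.8 CPM with LDL in Dnmt3aKO, 18.1, 18.4 and 17.7 CPM and 14.4, 14.3 and 18.9 CPM in Tet2KO, and 15.8, 17.8 and 19.98 CPM and 15.7, 17.2 and 18.2 CPM in Jak2VF. It was called lower in Dnmt3aKO alone among the mutants (-0.36 ± 0.11, adjusted p = 0.0345). The Cdt1 libraries read 24.9, 22.5 and 23.3 CPM with vehicle and 24.7, 22.5 and 16.2 CPM with LDL in Dnmt3aKO, 22.5, 15.9 and 26.3 CPM and 24.00, 18.99 and 26.99 CPM in Tet2KO, and 27.6, 24.1 and 22.7 CPM and 20.9, 24.1 and 21.9 CPM in Jak2VF, with overlap in all 3 genotypes and effects of -0.16, 0.11 and -0.15.

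Pola1 had effects from -1.10 in WT to -0.03 in Jak2VF. It read 27.2, 24.4 and 24.3 CPM with vehicle and 21.4, 19.7 and 19.9 CPM with LDL in Dnmt3aKO, 31.4, 26.02 and 30.6 CPM and 17.6, 23.4 and 16.4 CPM in Tet2KO, and 21.9, 24.1 and 31.8 CPM and 26.6, 22.4 and 27.4 CPM in Jak2VF. LDL lowered it in Tet2KO (-0.62 ± 0.18, adjusted p = 0.0188), while in Jak2VF the 2 treatments were mixed (-0.03 ± 0.17, adjusted p = 0.928). Pole gave 29.9, 24.6 and 28.3 CPM with vehicle and 21.3, 17.02 and 19.8 CPM with LDL in Dnmt3aKO, 36.5, 35.8 and 38.9 CPM and 20.7, 29.2 and 30.2 CPM in Tet2KO, and 25.8, 29.6 and 40.4 CPM and 32.9, 31.3 and 36.00 CPM in Jak2VF, and no mutant passed the test (-0.51, -0.47 and 0.07; adjusted p = 0.0512, 0.066 and 0.815). Pold2, an accessory subunit of polymerase delta, was lower in Dnmt3aKO (-0.48 ± 0.16, adjusted p = 0.0385) and Jak2VF (-0.54 ± 0.15, adjusted p = 0.0167), the 2 genotypes in which Pold1 was called too.

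The clamp gene Pcna read 159, 147 and 153 CPM with vehicle and 128, 144 and 145 CPM with LDL in Dnmt3aKO, 165, 153 and 163 CPM and 184, 141 and 173 CPM in Tet2KO, and 189, 181 and 151 CPM and 153, 180.0 and 167 CPM in Jak2VF. After the fall in WT, no mutant showed a called change (effects of -0.14, 0.05 and -0.06). Rfc3, a small subunit of the clamp loader, read 13.8, 13.8 and 13.96 CPM with vehicle and 11.7, 12.3 and 13.5 CPM with LDL in Dnmt3aKO, 15.7, 15.5 and 15.5 CPM and 15.6, 13.1 and 16.96 CPM in Tet2KO, and 17.3, 18.5 and 15.7 CPM and 15.2, 16.3 and 15.4 CPM in Jak2VF. For Rpa2 the libraries held 28.9, 28.6 and 30.3 CPM with vehicle and 25.1, 27.6 and 27.6 CPM with LDL in Dnmt3aKO, 32.8, 30.6 and 33.6 CPM and 41.1, 30.2 and 38.2 CPM in Tet2KO, and 41.5, 39.2 and 32.9 CPM and 30.9, 37.4 and 33.5 CPM in Jak2VF. Neither was called, but in Dnmt3aKO every LDL library of both genes was below every vehicle library.

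Rrm2 stood at 72.2, 79.4 and 73.7 CPM with vehicle and 66.1, 52.4 and 48.9 CPM with LDL in Dnmt3aKO, 89.6, 86.1 and 87.7 CPM and 74.7, 65.2 and 88.5 CPM in Tet2KO, and 122, 112 and 116 CPM and 94.2, 97.03 and 96.1 CPM in Jak2VF. It was lower in Dnmt3aKO (-0.43 ± 0.10, adjusted p = 0.00566), and in Jak2VF the groups were apart without a call (-0.28 ± 0.10, adjusted p = 0.0608). Tyms read 20.9, 22.2 and 22.02 CPM with vehicle and 15.6, 18.1 and 17.4 CPM with LDL in Dnmt3aKO, 25.2, 24.7 and 26.2 CPM and 27.2, 19.1 and 24.1 CPM in Tet2KO, and 41.96, 37.6 and 29.8 CPM and 24.6, 29.2 and 27.3 CPM in Jak2VF, with a called fall in Jak2VF (-0.43 ± 0.12, adjusted p = 0.0161). Fen1 ran from 0.502 to 1.30 CPM in the mutants, with overlap in each, and its effect in Tet2KO was -0.09 ± 0.36, adjusted p = 0.901.

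Members with the largest adjusted p in the mutants were Orc1 (0.05 ± 0.14, adjusted p = 0.869) and Gins3 (0.05 ± 0.11, adjusted p = 0.825) in Dnmt3aKO, Orc6 (-0.01 ± 0.11, adjusted p = 0.959) in Tet2KO and Pole2 (-0.02 ± 0.13, adjusted p = 0.941) in Jak2VF. Orc1 stood at 3.66, 3.60 and 4.38 CPM with vehicle and 4.10, 3.90 and 4.05 CPM with LDL in Dnmt3aKO, and Gins3 at 8.40, 10.1 and 9.68 and 8.74, 10.2 and 10.2 CPM. Orc6 read 26.6, 25.9 and 24.9 and 27.5, 22.1 and 27.3 CPM in Tet2KO, and Pole2 8.35, 9.37 and 10.4 and 9.75, 8.96 and 9.12 CPM in Jak2VF. In all 4 the treatments overlap.

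**Figure D3:**
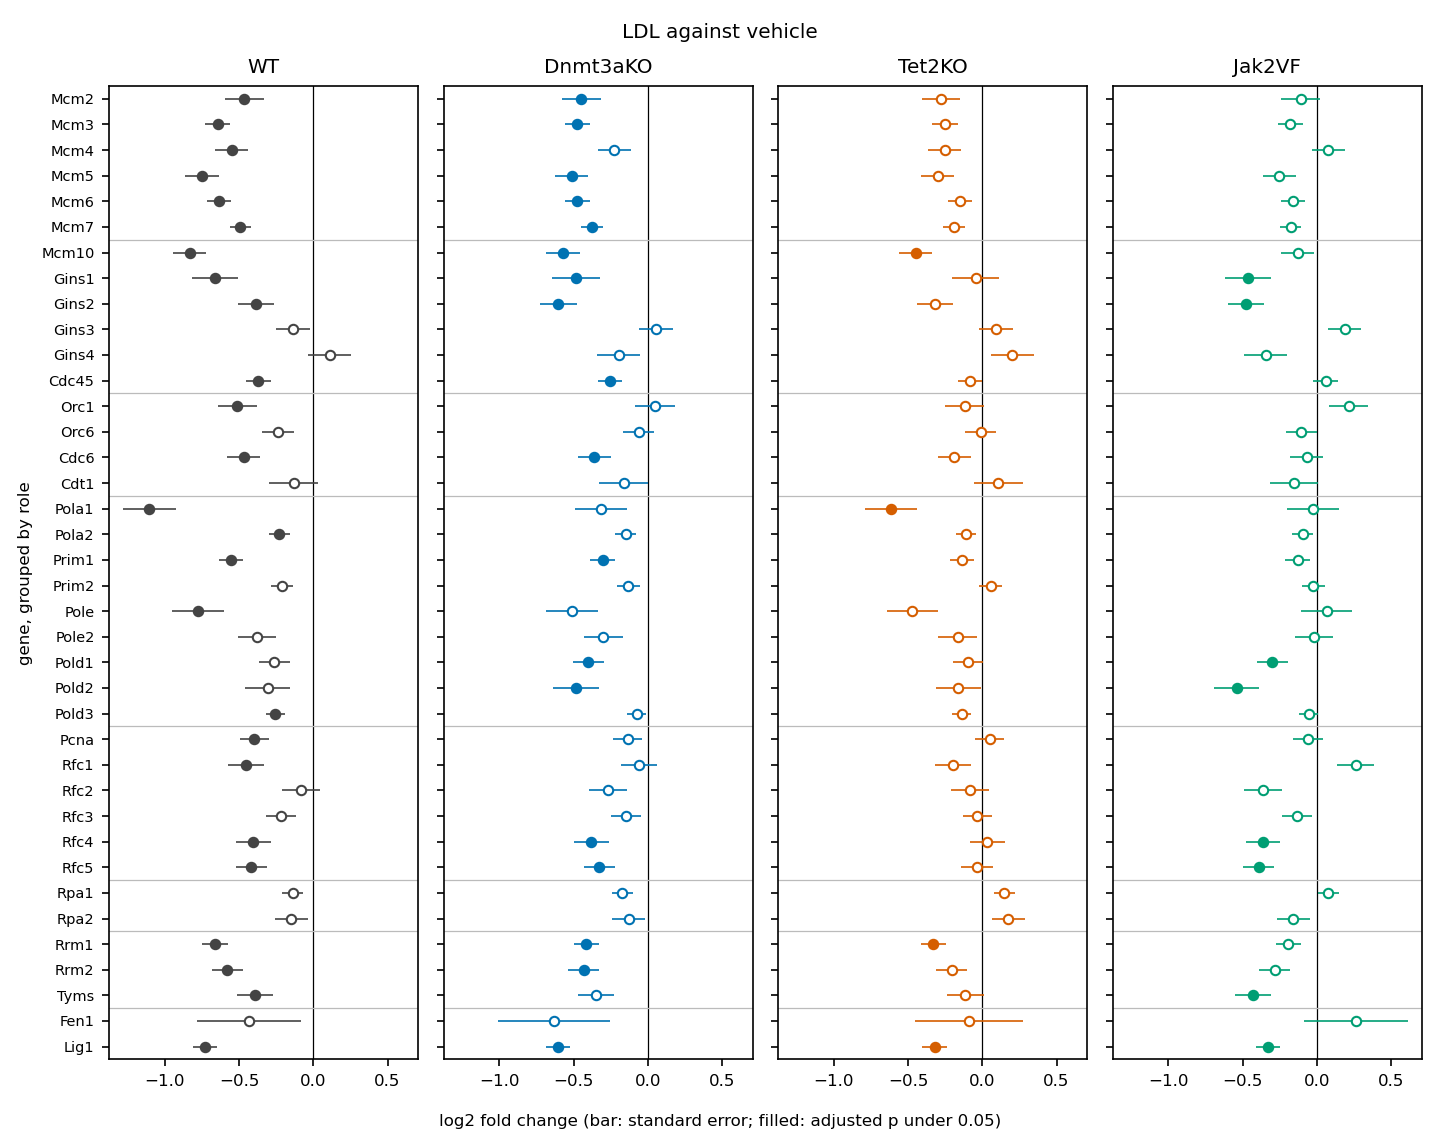
Effect of LDL on each of the 38 genes in the 4 genotypes (log2 fold change with its SE; filled points were called). In WT 25 points are filled and 37 lie below 0, while in Dnmt3aKO, Tet2KO and Jak2VF 18, 4 and 8 are filled.

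In the main set with vehicle alone, most replication genes already read lower in all 3 mutants than in WT, most of all in Dnmt3aKO. In Dnmt3aKO 31 of 38 were called lower and none higher (5.51% and 5.58% over all genes), in Tet2KO 13 (2.72% lower and 2.76% higher over all genes) and in Jak2VF 8 (5.26% lower and 4.29% higher). The median effects were -0.50, -0.29 and -0.23. All 38 effects were negative in Dnmt3aKO and Tet2KO, as were 31 in Jak2VF. The mutant libraries were all below the WT libraries for 35 genes in Dnmt3aKO, 30 in Tet2KO and 16 in Jak2VF. These 3 comparisons share the WT vehicle libraries, so that a chance high value there enters all of them. In batch 1, given below, Tet2KO against WT with vehicle had a median effect of 0.24, with 34 of 38 effects positive.

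Cdc45, Lig1, Mcm10, Mcm3, Mcm6 and Pcna were called lower in all 3 mutants. Mcm6, a helicase subunit, had the smallest adjusted p in each, at 175, 182 and 173 CPM in WT and 111, 96.1 and 106 CPM in Dnmt3aKO (-0.76 ± 0.08, adjusted p = 1.94e-06), 119.9, 112 and 127 CPM in Tet2KO (-0.56 ± 0.08, adjusted p = 0.000163) and 137, 129.9 and 118 CPM in Jak2VF (-0.46 ± 0.08, adjusted p = 0.00114). Every mutant library was below every WT library. Mcm3, another subunit, read 113, 121 and 117 CPM in WT, 84.5, 67.6 and 73.9 CPM in Dnmt3aKO, 82.95, 78.1 and 83.05 CPM in Tet2KO (-0.52 ± 0.09, adjusted p = 0.000466) and 88.3, 85.5 and 85.2 CPM in Jak2VF (-0.44 ± 0.09, adjusted p = 0.0022). Pcna, with the libraries given above, had effects of -0.64 ± 0.10, -0.57 ± 0.10 and -0.45 ± 0.10 (adjusted p = 0.000111, 0.000888 and 0.0051).

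By role, the helicase held 6 of 6 subunits called lower in Dnmt3aKO, 4 in Tet2KO and 2 in Jak2VF. Mcm5 showed the largest effect of all in Dnmt3aKO (-0.85 ± 0.11, adjusted p = 1.59e-05) and was also lower in Tet2KO (-0.47 ± 0.11, adjusted p = 0.0123), but not called in Jak2VF (-0.32 ± 0.11, adjusted p = 0.0721). Of the activators, 5 of 6 were lower in Dnmt3aKO, 3 in Tet2KO and 2 in Jak2VF. Cdc45 had effects of -0.69 ± 0.08, -0.42 ± 0.08 and -0.30 ± 0.08 (adjusted p = 5.1e-06, 0.0028 and 0.0222). Gins2 was lower in Dnmt3aKO (-0.42 ± 0.12, adjusted p = 0.0282), while 2 of 3 Jak2VF libraries were above all WT libraries (0.18 ± 0.12, adjusted p = 0.416).

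Licensing genes were called only in Dnmt3aKO (3 of 4), Cdc6 among them (-0.41 ± 0.11, adjusted p = 0.0175), with Cdt1 not called in any mutant. The polymerases and primase held 7 of 9 called lower in Dnmt3aKO, 1 in Tet2KO (Prim1, -0.46 ± 0.08, adjusted p = 0.00125) and 2 in Jak2VF. The latter were Pold3 (-0.33 ± 0.07, adjusted p = 0.0024) and Pola1 (-0.56 ± 0.17, adjusted p = 0.0458), although the highest Jak2VF library of Pola1 overlapped the lowest WT library. In Dnmt3aKO Pola1 and Pole were lower by similar amounts (-0.59 and -0.60).

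All 3 nucleotide supply genes were called lower in Dnmt3aKO, 1 in Tet2KO and none in Jak2VF. Rrm2 had effects of -0.69 ± 0.10, adjusted p = 7.71e-05 in Dnmt3aKO and -0.46 ± 0.10, adjusted p = 0.00781 in Tet2KO, against -0.06 ± 0.10, adjusted p = 0.791 in Jak2VF, where the libraries overlap those of WT. Tyms was lower in Dnmt3aKO (-0.63 ± 0.12, adjusted p = 0.00109) and was not called in Tet2KO (-0.41 ± 0.12, adjusted p = 0.0541) or Jak2VF (0.12 ± 0.12, adjusted p = 0.602). Rpa2 fell in Dnmt3aKO (-0.49 ± 0.11, adjusted p = 0.00471), as did Rpa1 (-0.38 ± 0.07, adjusted p = 0.000704) and Rfc3 (-0.40 ± 0.10, adjusted p = 0.00848). Lig1 had effects of -0.65 ± 0.08, -0.47 ± 0.08 and -0.40 ± 0.08 (adjusted p = 8.66e-06, 0.000906 and 0.00319).

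Gins4, Fen1 and Rfc1 were among the genes not called with vehicle in any mutant. Gins4 read 23.1, 25.6 and 25.4 CPM in Dnmt3aKO (-0.10 ± 0.14, adjusted p = 0.809), and Rfc1, the large subunit of the clamp loader, 68.5, 78.5 and 81.7 CPM in WT and 72.3, 71.1 and 70.7 CPM in Tet2KO (-0.10 ± 0.12, adjusted p = 0.742). Fen1 had effects of -0.30 ± 0.34 and -0.32 ± 0.35, a size not detectable at its depth. In Jak2VF the largest adjusted p belonged to Rpa1 (0.01 ± 0.07, adjusted p = 0.956; 136, 133 and 133 CPM in WT and 144, 132 and 129 CPM in Jak2VF) and Rfc2 (0.02 ± 0.13, adjusted p = 0.953; 72.3, 70.8 and 56.7 CPM in Jak2VF).

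**Figure D4:**
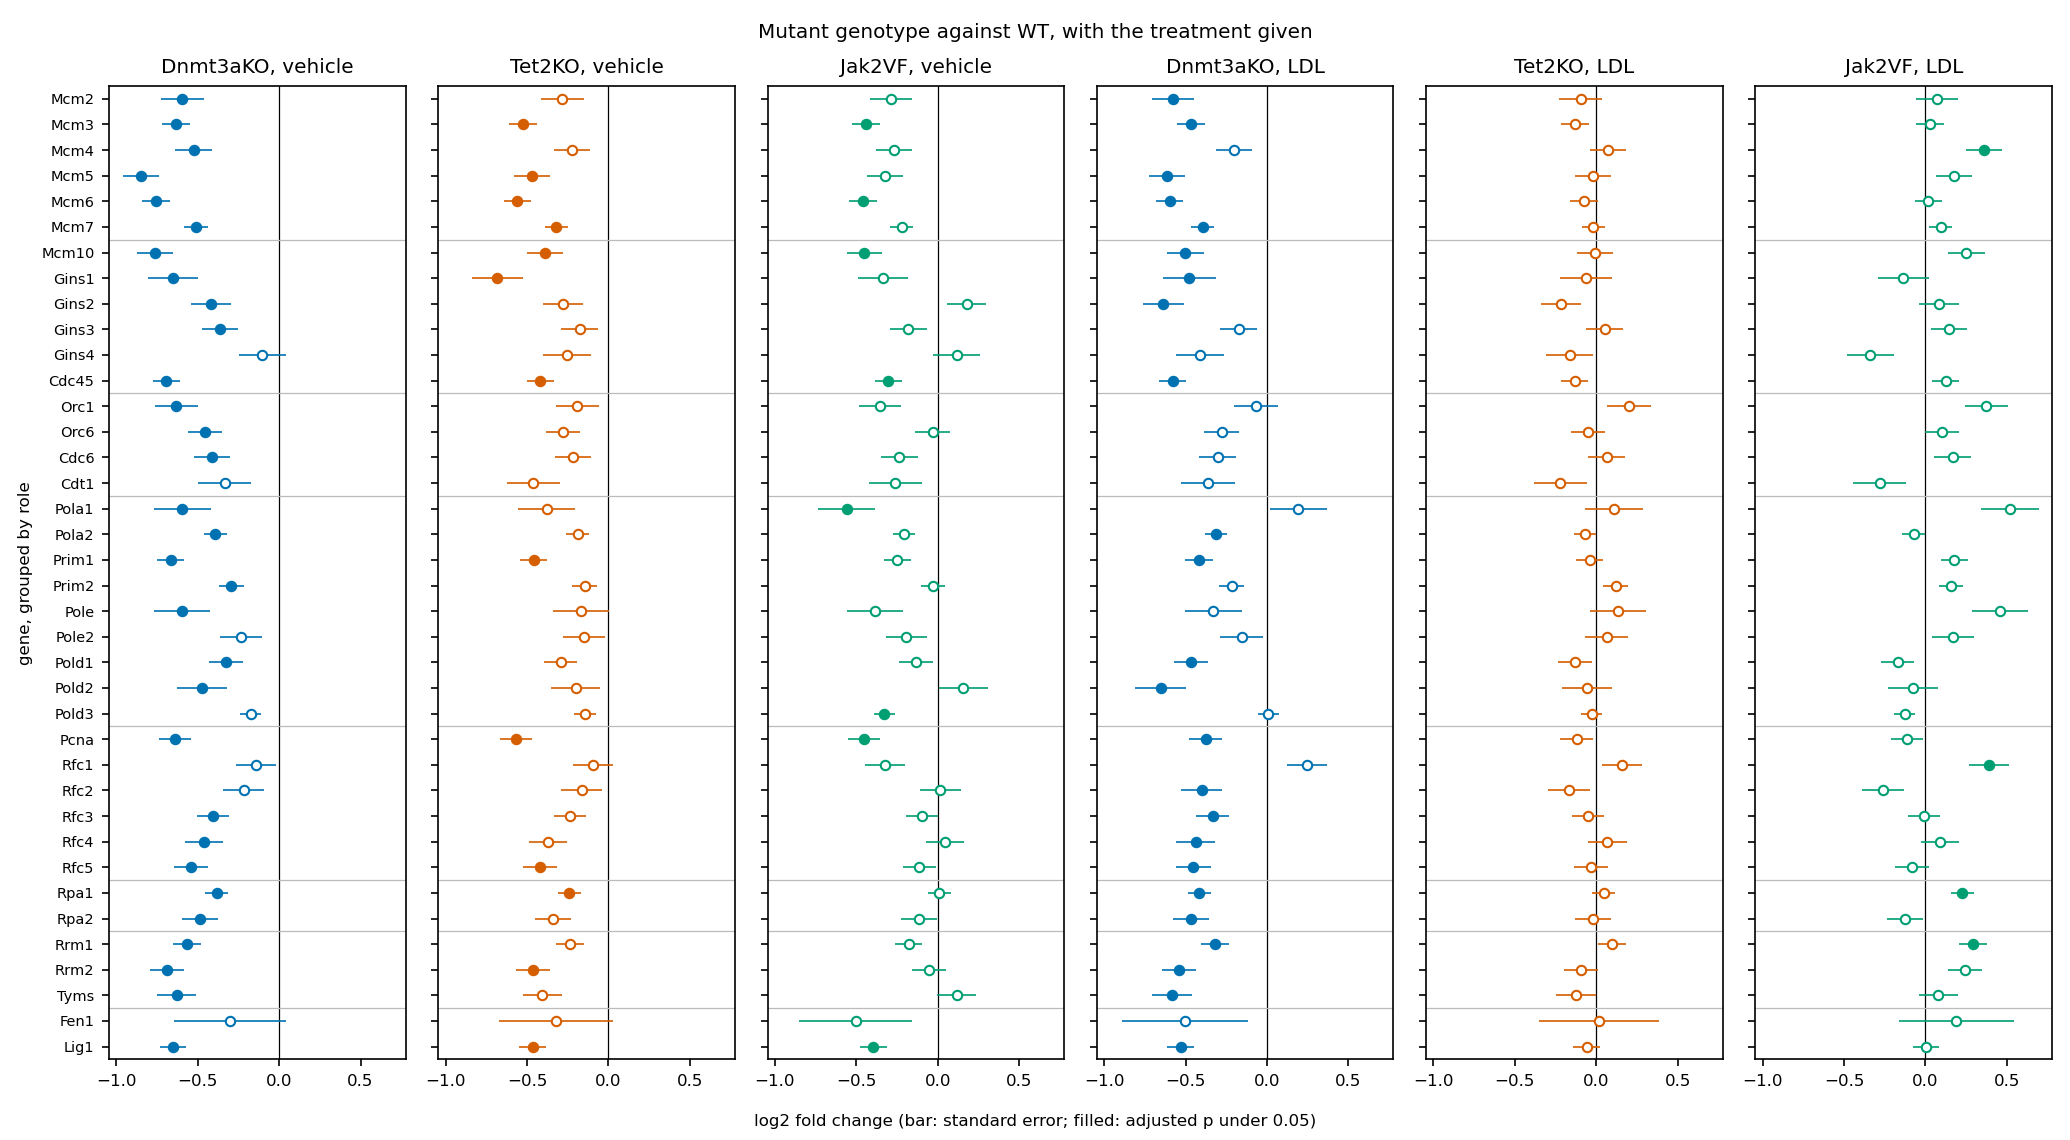
Effect of each mutant genotype against WT on the 38 genes, with vehicle and with LDL (log2 fold change with its SE; filled points were called). With vehicle 31, 13 and 8 points are filled and lie below 0. With LDL 24 filled points lie below 0 in Dnmt3aKO, none is filled in Tet2KO and 4 filled points lie above 0 in Jak2VF.

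With LDL, the 3 mutants stood differently against WT. In Dnmt3aKO 24 of 38 genes were still called lower and none higher (9.46% lower and 8.01% higher over all genes; median effect -0.41). In Tet2KO no gene was called (1.48% lower and 1.28% higher over all genes; median effect -0.04). At an unadjusted p under 0.05 edgeR gave 0 of the 38, against 2371 of 19444 over all genes. DESeq2 called 0 of the 38, and none of them had groups apart. In Jak2VF 4 genes were called higher and none lower (4.21% higher and 5.75% lower over all genes; median effect 0.09), and in 8 genes the Jak2VF libraries were all above those of WT and in 3 all below. The WT libraries with LDL are shared by these comparisons, and they enter the effects of LDL in WT with the opposite sign.

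In Dnmt3aKO with LDL, Mcm6 and Cdc45 had the smallest adjusted p. Mcm6 read 115, 111 and 115 CPM in WT and 76.5, 70.97 and 77.5 CPM in Dnmt3aKO (-0.60 ± 0.08, adjusted p = 3.74e-05), and for Cdc45 the effect was -0.58 ± 0.08, adjusted p = 5.65e-05. The lowest effects were those of Pold2 (-0.65 ± 0.16, adjusted p = 0.00669) and Gins2 (-0.64 ± 0.13, adjusted p = 0.0013). Pold3, Orc1, Pola1 and Rfc1 did not differ detectably, with effects of 0.01 ± 0.07, -0.07 ± 0.14, 0.19 ± 0.18 and 0.25 ± 0.12. Pold3, an accessory subunit of polymerase delta, read 49.03, 48.01 and 47.6 CPM in WT and 44.1, 51.4 and 49.8 CPM in Dnmt3aKO.

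In Tet2KO with LDL, the smallest adjusted p were those of Gins2 (-0.21 ± 0.12, adjusted p = 0.527) and Cdc45 (-0.13 ± 0.08, adjusted p = 0.567), and the largest those of Fen1 (0.02 ± 0.37, adjusted p = 0.989) and Mcm10 (-0.01 ± 0.11, adjusted p = 0.984; 11.3, 13.8 and 15.3 CPM in WT and 12.6, 13.2 and 14.4 CPM in Tet2KO). In this comparison the libraries of the same title number deviated together (0.724, 0.718 and 0.501), but the labels do not state a pairing. The replicate 3 libraries, both highest in Gfap, differ in their description number. A block on the title number was chosen after the data were seen. In a fit of these 6 libraries with the number as a block, 1 gene was called lower, Rfc2 of the clamp loader (-0.17, adjusted p = 0.0395 in edgeR), and Gins2 (-0.22, adjusted p = 0.0739) and Cdc45 (-0.14, adjusted p = 0.174) were not called.

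The 4 genes called higher in Jak2VF with LDL were Rrm1, Mcm4, Rfc1 and Rpa1. Rrm1 read 153, 184 and 194 CPM in WT and 207, 217 and 225 CPM in Jak2VF (0.29 ± 0.09, adjusted p = 0.037). For Mcm4 the libraries read 47.4, 68.7 and 63.1 CPM and 77.7, 71.5 and 80.9 CPM (0.36 ± 0.11, adjusted p = 0.0445), and for Rfc1 53.1, 65.9 and 48.2 CPM and 78.9, 66.3 and 73.7 CPM (0.39 ± 0.12, adjusted p = 0.0472). In Rpa1 they read 118, 117 and 129 CPM and 137, 149 and 139.6 CPM (0.22 ± 0.07, adjusted p = 0.0475). No Jak2VF library overlapped WT in these 4 genes, yet all 4 adjusted p lay just under the threshold, and no call was left without WT LDL replicate 1, or without Jak2VF LDL replicate 1 or 3. Lig1, by contrast, was level (0.00 ± 0.08, adjusted p = 0.984), as was Rfc3 (-0.01 ± 0.10, adjusted p = 0.956).

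Whether the effect of LDL itself differed from that in WT was tested as an interaction. In Jak2VF it was called positive, that is a weaker fall or a rise, for 8 genes, and negative for none (1.51% positive and 0.962% negative over all genes). The 8 were Mcm3, Mcm4 and Mcm6 of the helicase, Mcm10, Orc1, Pola1, Rfc1 and Rrm1, and the median over the 38 genes was 0.32. Mcm10 read 16.5, 16.9 and 19.2 CPM with vehicle and 15.8, 15.1 and 17.2 CPM with LDL in Jak2VF, against the fall in WT given above (interaction 0.70 ± 0.16, adjusted p = 0.0239). Pola1 had the largest interaction (1.08 ± 0.25, adjusted p = 0.028), and Rfc1, at 52.9, 60.6 and 69.3 CPM with vehicle and 78.9, 66.3 and 73.7 CPM with LDL in Jak2VF, had 0.71 ± 0.17, adjusted p = 0.0359. The other 5 lay between 0.47 (Mcm3, adjusted p = 0.0464) and 0.73 (Orc1, adjusted p = 0.043). Rpa2 (-0.01 ± 0.16, adjusted p = 0.966) and Cdt1 (-0.02 ± 0.23, adjusted p = 0.962) were at the other end, and Gins4 had the most negative value (-0.45 ± 0.20, adjusted p = 0.165). The 8 calls rest on single libraries: none was left without WT LDL replicate 1, Jak2VF LDL replicate 1 or 3, WT vehicle replicate 2 or 3, or Jak2VF vehicle replicate 1 or 2. Without both LDL libraries highest in Gfap, 3 of the 8 were left, and 2 of the 4 genes higher in Jak2VF with LDL.

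Length and base content of the transcripts moved with this interaction. Over 19417 genes the interaction in Jak2VF had a Spearman correlation of 0.336 with exon length and -0.369 with GC content. Over the 38 genes the values were 0.274 and -0.233. Genes of one set of libraries are not independent points. Other comparisons had such correlations too. For GC content they were -0.394 over all genes and -0.486 over the 38 for the Dnmt3aKO interaction. For LDL in WT they were 0.287 and 0.102. With each library's trend on length and GC removed, 12 genes were called for the Jak2VF interaction, 6 of the 8 among them. Mcm6 was not called (0.35, adjusted p = 0.126 in edgeR), and Rrm1 turned to -0.05 (adjusted p = 0.885). With the same correction none of the 4 genes higher in Jak2VF with LDL was called.

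In Tet2KO and Dnmt3aKO no interaction was called for any of the 38 genes (over all genes 0.0411% positive and 0.0617% negative in Tet2KO, and 0.19% positive and 0.242% negative in Dnmt3aKO). In Tet2KO 37 of 38 interactions were positive (median 0.29), and DESeq2 called 3. In edgeR 17 of the 38 had an unadjusted p under 0.05, all positive, against 1428 of 19444 over all genes. The smallest adjusted p were those of Mcm6 (0.48 ± 0.12, adjusted p = 0.136) and Prim1 (0.42 ± 0.12, adjusted p = 0.237). In Dnmt3aKO the median was 0.12, and DESeq2 called none. In edgeR 4 of the 38 had an unadjusted p under 0.05, a smaller share than the 2744 of 19444 over all genes. By adjusted p, Pola1 (0.79 ± 0.25, adjusted p = 0.163) and Orc1 (0.56 ± 0.19, adjusted p = 0.192) came first and Mcm2 (0.02 ± 0.18, adjusted p = 0.976) last. The smaller numbers of calls with LDL in Tet2KO and Dnmt3aKO than in WT are therefore not shown to be a difference between genotypes.

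**Figure D5:**
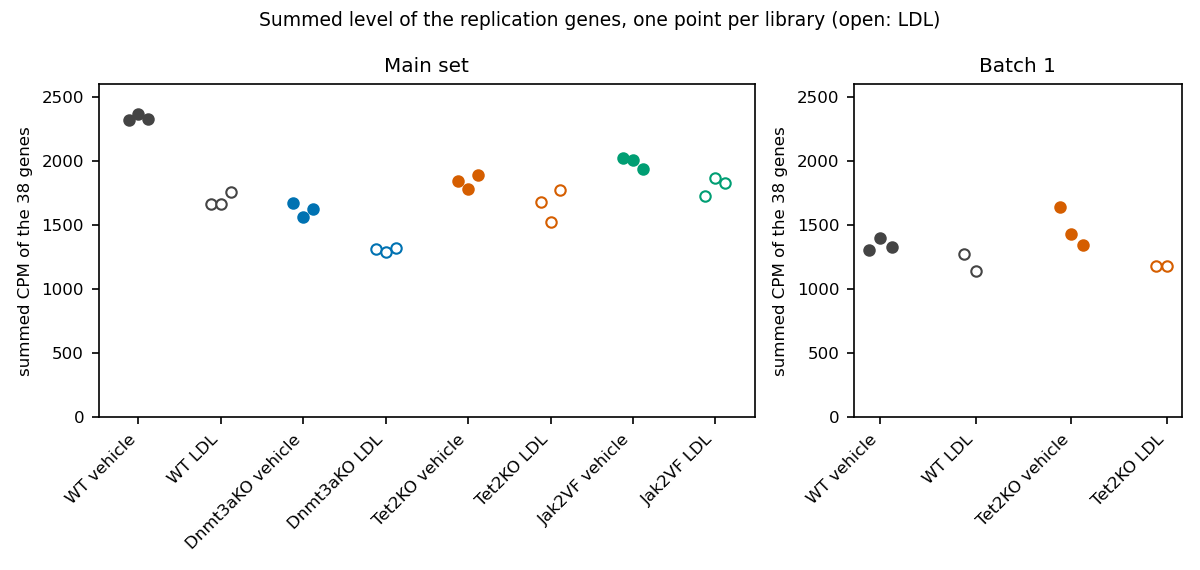
Summed CPM of the 38 replication genes in each library, by genotype and treatment, for the main set and batch 1. In the main set WT with vehicle sits at 2324 to 2370 CPM, above all other groups, and Dnmt3aKO with LDL at 1293 to 1319 CPM, below all others.

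Summed over the 38 genes, the WT libraries of the main set held 2342 ± 24.8 CPM with vehicle and 1696 ± 57.2 CPM with LDL (SD, n = 3). Dnmt3aKO held 1620 ± 53.6 and 1309 ± 14.2 CPM, Tet2KO 1840 ± 55.2 and 1661 ± 129.9 CPM, and Jak2VF 1991 ± 44.8 and 1809 ± 75.9 CPM. The sums leave a gap between vehicle and LDL in all 4 genotypes, though Tet2KO came closest, with 1782 CPM in its lowest vehicle library and 1779 CPM in its highest LDL library. Gene by gene, the WT vehicle mean was the highest of the 8 groups for 30 of the 38, and the Dnmt3aKO mean with LDL the lowest for 33. The sum is led by the abundant genes, Rrm1 and Pcna among them.

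Batch 1, with fewer libraries and a larger spread between them (biological coefficient of variation 0.199, against 0.137 in the main set), gave no call for any of the 38 genes in any comparison. Over all genes, 0% were called with LDL in WT and 0% in Tet2KO in either direction, 0.73% higher and 1.16% lower for Tet2KO against WT with vehicle, 0.245% higher and 0.291% lower with LDL, and 0% for the interaction. In LDL averaged over both genotypes, a comparison added after the data were seen, they were 0.155% higher and 0.116% lower. At an unadjusted p under 0.05 edgeR gave 1 of the 38 with LDL in WT, 11 in Tet2KO and 13 in the average, all lower, and DESeq2 called 0, 1 and 2. Over all 15481 genes the same edgeR cut gave 707, 1126 and 1662 in either direction. The median effects of LDL were -0.13 in WT (34 of 38 negative), -0.23 in Tet2KO (37 negative) and -0.17 in the average (38 negative).

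Mcm10 and Mcm5 had the smallest adjusted p with LDL in both genotypes of batch 1. Mcm10 stood at 7.13, 11.4 and 8.23 CPM with vehicle and 4.49 and 6.09 CPM with LDL in WT, and at 14.6, 9.45 and 10.7 CPM and 5.85 and 6.04 CPM in Tet2KO, with an average effect of -0.85 ± 0.18, adjusted p = 0.121. Mcm5 read 32.7, 42.1 and 35.4 CPM and 31.3 and 26.99 CPM in WT, and 62.6, 44.4 and 48.4 CPM and 34.7 and 35.01 CPM in Tet2KO (average -0.46 ± 0.12, adjusted p = 0.166). In both genes the LDL libraries were below the vehicle libraries in each genotype. Pcna was spread more widely, at 327, 301 and 281 and 277 and 222 CPM in WT and 337, 288 and 203 and 189 and 164 CPM in Tet2KO (-0.46 ± 0.14, adjusted p = 0.235). Lig1 read 32.3, 39.6 and 40.4 and 34.1 and 32.1 CPM in WT and 53.5, 44.2 and 44.9 and 35.9 and 38.9 CPM in Tet2KO (-0.26 ± 0.09, adjusted p = 0.307), with overlap in WT. Pola2 had the largest adjusted p in the average (0.00 ± 0.06, adjusted p = 0.998).

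For Tet2KO against WT with vehicle, batch 1 had the opposite sign to the main set, a difference between separate tables that was not tested. The median effect was 0.24, and 34 of 38 genes were positive. In edgeR 13 had an unadjusted p under 0.05, 12 of them higher, against 2163 of 15481 over all genes. DESeq2 called 2 of the 38. In 13 genes the Tet2KO libraries were all above those of WT, and in 1, Pold3, all below. Mcm4 stood at 32.01, 32.9 and 32.5 CPM in WT and 43.8, 37.7 and 44.2 CPM in Tet2KO (0.37 ± 0.09, adjusted p = 0.0813), and Mcm2 at 32.9, 35.98 and 40.2 and 55.99, 43.02 and 47.4 CPM (0.42 ± 0.11, adjusted p = 0.118). Rrm2 read 21.1, 25.6 and 24.6 and 36.7, 29.6 and 41.5 CPM (0.60 ± 0.23, adjusted p = 0.286), and Tyms 5.43, 8.24 and 7.14 and 10.9, 8.79 and 10.5 CPM (0.53 ± 0.24, adjusted p = 0.357). Rfc3 (0.01 ± 0.13, adjusted p = 0.991) and Rfc1 (-0.01 ± 0.08, adjusted p = 0.985) had the largest adjusted p. Stromal markers summed to 397 to 702 CPM in the WT libraries of batch 1, but reached 3320 CPM in Tet2KO vehicle replicate 3 and 3080 CPM in Tet2KO LDL replicate 2. Without these 2 libraries no gene was called either, and the median effect remained 0.24.

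With LDL, Tet2KO and WT of batch 1 were closer (median effect 0.09, 28 of 38 positive, none called by DESeq2). In edgeR 3 of the 38 had an unadjusted p under 0.05, a smaller share than the 1844 of 15481 over all genes. Pold3 and Tyms came first. Pold3 read 66.1 and 68.3 CPM in WT and 58.4 and 56.01 CPM in Tet2KO (-0.23 ± 0.08, adjusted p = 0.324), and Tyms 5.66 and 5.13 and 6.39 and 11.6 CPM (0.74 ± 0.29, adjusted p = 0.376). Fen1 (0.00 ± 0.25, adjusted p = 1.0) and Rpa1 (0.00 ± 0.09, adjusted p = 0.995) came last. The interaction had a median of -0.10, and DESeq2 called 0 of the 38. In edgeR 0 of them had an unadjusted p under 0.05, against 236 of 15481 over all genes.

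A wider list of 41 other replication genes, written from textbook knowledge (further licensing and firing factors, fork protection, chromatin assembly and nucleotide enzymes), was lower with LDL in WT for 23 and higher for 1 (median -0.45). Its leading genes were Asf1b, a histone chaperone (-1.25 ± 0.13, adjusted p = 2.94e-07), Clspn, a fork checkpoint mediator (-1.28 ± 0.16, adjusted p = 4.4e-06), Dck, a nucleoside kinase (-0.83 ± 0.11, adjusted p = 7.48e-06), and Dbf4, the activator of the Cdc7 kinase (-0.78 ± 0.09, adjusted p = 1.91e-06). In the mutants, LDL lowered 7 of the 41 in Dnmt3aKO (1 higher), 7 in Tet2KO (0 higher) and 9 in Jak2VF (1 higher). Over all genes, 7.58% were called lower with LDL in WT, 8.96% in Dnmt3aKO, 8.21% in Tet2KO and 9.72% in Jak2VF. In the same order, 6.67%, 6.41%, 8.59% and 8.44% were called higher. Against WT with vehicle 18, 10 and 10 of the 41 were lower in Dnmt3aKO, Tet2KO and Jak2VF, none higher. Over all genes the shares were 5.51%, 2.72% and 5.26% lower and 5.58%, 2.76% and 4.29% higher. With LDL 11 of the 41 were lower and 1 higher in Dnmt3aKO, none was called in Tet2KO, and 4 were lower and 4 higher in Jak2VF. Over all genes these shares were 9.46%, 1.48% and 5.75% lower and 8.01%, 1.28% and 4.21% higher. The interaction in Jak2VF was called positive for 9 of the 41 (1.51% over all genes), Clspn among them (1.36 ± 0.22, adjusted p = 0.00546).

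A list of 29 regulators of S-phase entry was counted the same way. Of these (E2F and retinoblastoma families, cyclins, kinases and their inhibitors), 7 were lower with LDL in WT and none higher, led by E2f8, an E2F that represses replication genes (-1.34 ± 0.16, adjusted p = 3.02e-06), and Cdkn2c, an inhibitor of cyclin D kinases (-1.02 ± 0.13, adjusted p = 4.3e-06). In Dnmt3aKO 6 were lower, in Tet2KO 4 lower and 2 higher, and in Jak2VF 5 lower and 1 higher. With LDL, 8.21% of all genes were called lower and 8.59% higher in Tet2KO, and 9.72% and 8.44% in Jak2VF. The shares were 8.96% and 6.41% in Dnmt3aKO and 7.58% and 6.67% in WT. Against WT with vehicle, 7, 2 and 4 of the 29 were lower in Dnmt3aKO, Tet2KO and Jak2VF (5.51%, 2.72% and 5.26% over all genes).

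Most genes of mitosis were lower with LDL in every genotype. Of 25, 24 were lower with LDL in WT (median -1.12; Nusap1, a spindle protein, -1.55 ± 0.11, adjusted p = 1.64e-09), 22 in Dnmt3aKO (-0.73), 22 in Tet2KO (-0.69) and 16 in Jak2VF (-0.49), with none higher. In Tet2KO, where 4 of the 38 replication genes were called, the calls thus covered most of this list. Against WT with vehicle 21, 14 and 6 were lower in Dnmt3aKO, Tet2KO and Jak2VF. With LDL 17 were lower in Dnmt3aKO, none was called in Tet2KO and 13 were higher in Jak2VF. In Jak2VF 13 interactions were also called positive. The summed mitosis level was 2167 to 2482 CPM in WT with vehicle and 983.9 to 1176 CPM with LDL, a wider gap in proportion than that of the replication genes. In batch 1 no gene of this list was called, and its median was -0.70 for LDL averaged over both genotypes and 0.31 for Tet2KO against WT with vehicle. Of 7 histone genes tested in the main set none was called with LDL in WT or Dnmt3aKO, and 1 was lower in Tet2KO. In Jak2VF 3 were lower (H2afx, H2afz and Hist1h2bc), of which H2afz is made outside S phase as well.

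Across the 24 main libraries most of the 38 genes moved together. The correlation of a gene's log2 level with the mean of the other 37 was highest for Mcm5 (0.989) and Mcm7 (0.983) and lowest for Rfc1 (0.138) and Pold3 (0.336). In the 10 libraries of batch 1 Mcm5 was again highest (0.983), followed by Lig1 (0.972), and Pold3 (-0.362) and Rfc2 (-0.146) lowest. The libraries of a group share genotype and treatment, so these values describe the data and carry no test. Genes with and without an E2F word in the promoter window were both among the calls. With LDL in WT 9 of 14 with a word and 12 of 17 without were called, and in Dnmt3aKO against WT 11 of 14 and 15 of 17 with vehicle and 7 of 14 and 14 of 17 with LDL. In Jak2VF against WT with vehicle 5 of 14 and 3 of 17 were called. The difference between the 2 classes was not tested.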

How the data were processed

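RNA of 34 libraries was sequenced, and the authors deposited whole-number counts per gene and library, in 1 table for the main set and 1 for batch 1. File names speak of normalized counts, but library totals differ and the values were taken as unscaled. The genome build is mm10 (per the submitters' processing notes). Aligner, counter, annotation and strand setting were not given in the sources used here, and both Ribo-Zero and poly-A selection appear in the labels. Counts were tested with the edgeR quasi-likelihood test (edgeR 4.0.16, R 4.3.3) with TMM scaling, fitting all groups of a set together with no further covariate (16 and 6 residual degrees of freedom). A gene entered the test with 10 or more counts in 3 or more libraries of the main set, or in 2 or more of batch 1. Tests were two-sided, with Benjamini-Hochberg adjustment over all genes tested and calls at 0.05. The sets were fitted apart, and the fit recovered known changes in simulated counts. The members and gene lists were chosen with earlier results of these data known. Values per library were printed for 14 genes set by role (Mcm5, Gins2, Cdc45, Cdc6, Cdt1, Pola1, Pole, Pcna, Rfc3, Rpa2, Rrm2, Tyms, Fen1 and Lig1; in batch 1 for some of them) and for genes with the smallest or largest adjusted p of a comparison. Gene coordinates and exon lengths came from the GENCODE annotation of GRCm38, and promoter windows from RefSeq. Deviations from the group means of same-numbered libraries (numbers of the titles) were correlated, and between WT and Tet2KO with LDL all 3 pairs deviated together (0.724, 0.718 and 0.501). DESeq2 1.42.0, other scalings, no filter, replicate blocks, left-out libraries and a length and GC offset were tried as alternatives.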

Additional observations from a re-analysis of the deposited data

Results flagged for a closer look

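The effect of LDL in Jak2VF differed from that in WT by the interaction test of edgeR for 8 of the 38 genes, all positive on the log2 scale. The differences were 0.4659 for Mcm3, 0.6273 for Mcm4, 0.4753 for Mcm6, 0.7019 for Mcm10, 0.7263 for Orc1, 1.0766 for Pola1, 0.7123 for Rfc1 and 0.4683 for Rrm1. Their adjusted p ran from 0.0239 to 0.0464, and the groups hold 3 libraries each.

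For 11 genes, Tet2KO libraries with vehicle were all below the WT libraries in the main set and all above them in batch 1. The log2 effects in the main set and in batch 1 were -0.4657 and 0.3432 for Lig1, -0.2823 and 0.4232 for Mcm2, -0.5245 and 0.2759 for Mcm3, and -0.222 and 0.3669 for Mcm4. They were -0.4708 and 0.4942 for Mcm5, -0.32 and 0.2536 for Mcm7, -0.2784 and 0.2127 for Orc6, and -0.1889 and 0.22 for Pola2. For Prim1 they were -0.4572 and 0.3654, for Rrm2 -0.4645 and 0.5971, and for Tyms -0.4057 and 0.5336. The sets are separate tables, and the difference between them was not tested. How many of all genes show such a pattern was not counted.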

How the results depend on the processing

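With 3 libraries a group, effects were mostly under 1 on the log2 scale. The number of the 38 genes called moved with the settings more than the direction of called genes did. Over single genes, 5071 of 5630 alternative values stayed on their side of the threshold, 476 lost the call, 81 gained it and 2 reversed. A reversal was counted only where the gene was called in the main fit or in the alternative. Any change of sign in a gene called in neither is among the 5071. The reversals were both of Rrm1 with the length and GC offset, at -0.059 for Jak2VF against WT with LDL (adjusted p = 0.776) and -0.05 for the Jak2VF interaction (adjusted p = 0.885). Where the cause of a moved count is not given by the setting itself, the cause was not tested.

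For LDL in WT, the 25 genes became 12 in a fit of only the 2 groups compared. For LDL in Tet2KO, the 4 became 7 with DESeq2, 9 with the length and GC offset, 8 without both LDL libraries highest in Gfap and 0 with only the groups compared. For LDL in Jak2VF, the 8 became 4 without the filter on low counts and 3 with only the groups compared. For Jak2VF against WT with vehicle, the 8 became 13 with the offset and 3 with only the groups compared. With LDL, Dnmt3aKO against WT fell from 24 genes to 11 with only the groups compared, and Jak2VF against WT from 4 to 0 with the offset, 2 without those 2 libraries and 0 with only the groups compared. The Tet2KO interaction went from 0 to 3 with DESeq2 and 1 with the offset, and the Jak2VF interaction from 8 to 14 with DESeq2, 3 with upper-quartile scaling, 3 without those 2 libraries and 0 with only the groups compared. In batch 1 DESeq2 called 1 gene with LDL in Tet2KO, 2 for Tet2KO against WT with vehicle and 2 for LDL averaged over both genotypes, and the offset called 1 for Tet2KO against WT with vehicle. The offset, upper-quartile scaling, the batch 1 average and the blocked fit of 2 groups were chosen after seeing the data.

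The labels number the replicates, but libraries of one number and genotype did not all deviate together (correlations from -0.387 to 0.608 over 12 pairs in the main set). The WT pairs were at 0.608, 0.143 and 0.026, while Dnmt3aKO, Tet2KO and Jak2VF each held a negative pair (-0.013, -0.026 and -0.387). The numbers were not taken to pair vehicle with LDL. In batch 1 both same-numbered pairs of WT with vehicle and with LDL were above 0.1 (0.239 and 0.145). Among the comparisons of the main set, only WT and Tet2KO with LDL had every same-numbered pair above 0.1. There the replicate block in a fit of these 2 groups raised the count from 0 to 1, and the block in the fit of all groups left it at 0 (Gins2 -0.22, adjusted p = 0.498). With the replicate block by title number, the counts were 26, 19, 6 and 9 for LDL in WT, Dnmt3aKO, Tet2KO and Jak2VF. With the replicate block by description number, LDL in Tet2KO had 7, and with the block within genotype LDL had 5 in WT, 1 in Dnmt3aKO, 0 in Tet2KO and 0 in Jak2VF. That block left the Jak2VF interaction with 0.

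Leaving out 1 library gave 17 to 22 genes for LDL in WT, 10 to 14 in Dnmt3aKO, 2 to 7 in Tet2KO and 0 to 11 in Jak2VF. Against WT with vehicle it gave 22 to 27 in Dnmt3aKO, 8 to 13 in Tet2KO and 5 to 9 in Jak2VF. With LDL it gave 19 to 28, 0 and 0 to 7. The interactions gave 0 to 1 in Dnmt3aKO (1 without WT LDL library 2), 0 to 1 in Tet2KO (1 without its LDL library 2) and 0 to 13 in Jak2VF. The batch 1 average gave 0 to 1 (1 without Tet2KO vehicle library 3). LDL in Dnmt3aKO had 10, 11 and 11 without vehicle library 1, 2 or 3 and 10 without LDL library 2 or 3. LDL in Tet2KO had 2 without vehicle library 3 and 7 without LDL library 3. LDL in Jak2VF had 2 and 4 without vehicle library 1 or 2, and 0 and 4 without LDL library 1 or 3. With vehicle, Tet2KO had 8 without its library 2, and Jak2VF 5 without WT library 2 or its own library 1 or 2. With LDL, Jak2VF had 0, 7 and 2 without WT library 1, 2 or 3, and 0, 2 and 0 without its own. The Jak2VF interaction had 0 without WT vehicle library 2 or 3, 0, 13 and 3 without WT LDL library 1, 2 or 3, 0, 0 and 13 without Jak2VF vehicle library 1, 2 or 3, and 0, 5 and 0 without Jak2VF LDL library 1, 2 or 3.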
